A study of Oryctolagus cuniculus with 8 samples.

Results

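The heat shock proteins and their co-chaperones were followed in the retinas of rabbits kept on diets rich in fat, in sucrose or in both. The genes were chosen by name as the protein-coding rows whose symbol begins with HSPA, HSPB, HSPD, HSPE, HSPH, HSP90, DNAJA, DNAJB, DNAJC or BAG and continues with a digit. This gave 57 of the 25666 rows of the table, and 51 of them were among the 12204 protein-coding genes that reached an FPKM of 1 in at least 2 libraries and were tested. FPKM, the unit of the values, sets a gene's sequenced fragments against its length and against the depth of the library.

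Male wild-type Chinchilla rabbits, 12 to 16 weeks old before the diets, were fed for 6 months. The normal diet (ND) was standard chow, the high-fat diet (HFD) was that chow with 10% lard and 0.5% cholesterol, the high-sucrose diet (HSD) was the chow with 40% sucrose, and the high-fat and high-sucrose diet (HFSD) held the lard and cholesterol of HFD with 35% sucrose. RNA of 8 dissected retinas, 2 for each of the 4 diets, was sequenced. Nothing in the sources states whether both retinas of a diet came from separate animals, so that the p-values measure the spread between these samples only.

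Chaperones bind proteins that are not yet folded or have lost their fold. HSP70 proteins (HSPA) work in rounds of ATP use: a J protein (DNAJA, DNAJB or DNAJC) brings the client and starts ATP hydrolysis, and an exchange factor, such as an HSP110 protein (HSPH1, HSPA4, HSPA4L) or a BAG protein, opens the HSP70 again. HSP90 takes over partly folded kinases and receptors, and small heat shock proteins (HSPB) hold unfolding proteins without ATP. Photoreceptors make large amounts of membrane protein each day, and chaperones of the endoplasmic reticulum (ER) and of the outer segment pathway are known to be needed for it.

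The depth by which FPKM had been divided, worked out from the steps between the values, was 15764577 to 22785832 fragments a library. The fragments summed over the rows were 15223613 to 22293559, and in ND replicate 2 and HFD replicate 1, the libraries with the highest summed FPKM, they exceeded that depth. The summed FPKM of 5 rod markers was 26844 to 37329 in every library, as belongs to retina. The HSD replicate 2 retina stood apart, with 571 FPKM summed over 13 skeletal muscle marker rows against 7.11 to 12.3 in the other libraries, and HFD replicate 1 stood apart by transcript length. There the median difference from the gene's mean was 0.30 lower (log2) for genes of at least 4000 bases than for genes under 1000 bases. Long minus short was 0.05 to 0.10 in the 4 sucrose retinas and -0.02 to 0.03 in both ND retinas and HFD replicate 2. Müller cell markers summed to 1779 to 1898 FPKM in the 4 retinas of both sucrose diets and to 2529 to 3715 in the other 4, a difference mostly of GLUL. Immediate early genes, which rise within minutes of stimulation, summed to between 135 in HFD replicate 1 and 2182 in ND replicate 1. The part of these differences in the results was not tested, and in whole retina fewer cells of a type and less RNA per cell cannot be told apart.

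Most of the chaperone genes were well expressed. The median of their mean FPKM was 27 over the 51 genes, against 13.8 over all genes tested, and 38 of the 51 were above the median gene. A mean of 100 FPKM or more was reached by 6 genes, 37 lay between 10 and 100, and 8 between 1 and 10. Of the 57 rows, 6 did not reach the filter: DNAJB7, DNAJB13, DNAJC5B, DNAJC5G, HSPA6 and HSPB9, of which DNAJC5G and HSPB9 were listed at 0 in every library. Just inside the filter were HSPB7, with 1.06, 1.01 and 3.70 FPKM in the 3 libraries past it, HSPB3, and HSPA12B, which reached 1 FPKM only in ND and HFSD. Just outside were DNAJB13 and DNAJC5B, with at most 0.697 and 0.516. Summed over the 51 genes past the filter, they took 4031 to 5057 FPKM a library, or 0.698 to 0.852% of all FPKM.

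**Figure D1:**
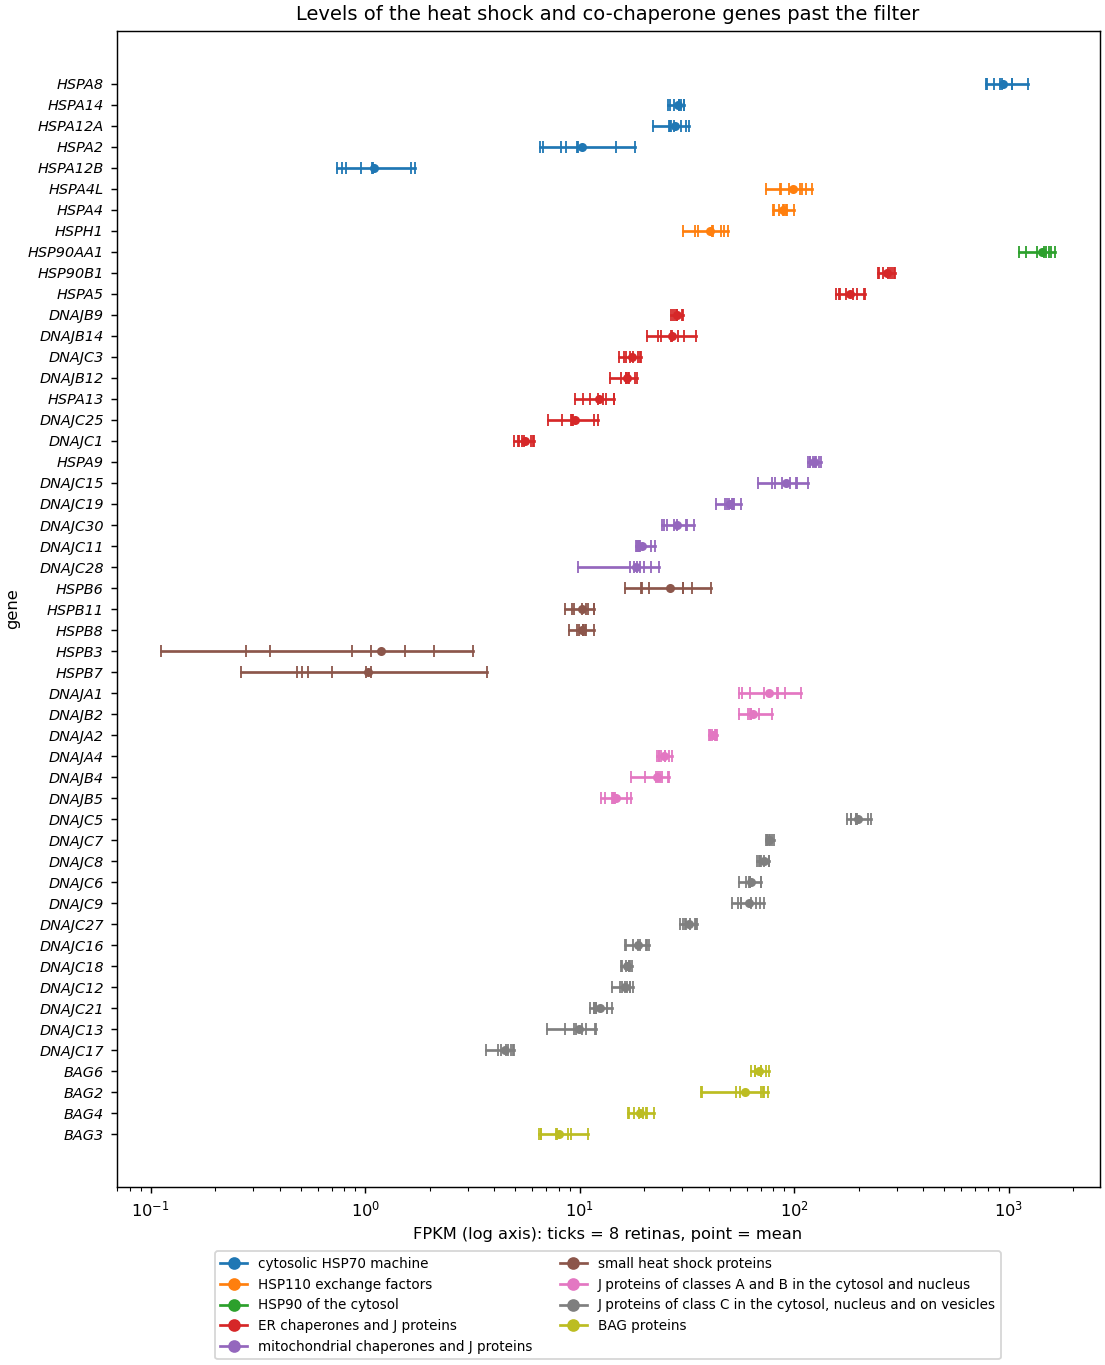
Levels of the 51 heat shock and co-chaperone genes past the filter, by class, on a log axis of FPKM; each tick is 1 of 8 retinas, the line spans the lowest to the highest and the point is the mean. HSP90AA1 and HSPA8 lie far to the right at means of 1423 and 945 FPKM, and HSPB3 and HSPB7 have the widest spans.

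The cytosolic HSP90 and HSP70 were the most abundant members. HSP90AA1, the cytosolic HSP90 alpha, was at 1642 and 1353 FPKM in ND, against 1456 and 1115 in HFD, 1548 and 1208 with HSD and 1496 and 1568 with HFSD, rank 26 among the genes tested by its mean. HSPA8, the constitutive HSP70 that also uncoats clathrin vesicles, was at 1034 and 793 FPKM in ND, against 1226 and 785 in HFD, 926 and 855 with HSD and 1033 and 911 with HFSD. Both genes overlapped between each diet and ND. In ND and in HFD the 2 retinas lay further apart than any 2 diet means for both genes, but this did not hold in every diet. Since fragments that mapped to several places were discarded, levels of genes with near-identical copies are uncertain. Whether these 2 genes have such copies in the rabbit genome was not examined. HSPA5, the main HSP70 of the ER (BiP), had 157 to 213 FPKM, HSP90B1, the HSP90 of the ER, 245 to 296, and HSPA9, the HSP70 of mitochondria, 116 to 133. DNAJC5, the cysteine string protein of synaptic vesicles and the most abundant J protein, ranged from 177 to 227. HSPA4L, HSPA4 and HSPH1 make up the HSP110 exchange factors, with means of 98.8, 88.4 and 40.6 FPKM.

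Among classical stress-inducible members, HSPA6 stayed at 0 to 0.33 FPKM and BAG3 at 6.47 to 10.9. No protein-coding row bore the symbol HSPA1A, HSPA1B, HSPB1, DNAJB1, HSP90AB1, HSPD1 or HSPE1, so these genes were not analysed here. Of the 73 protein-coding symbols of these families in the RefSeq gene list, 55 had a row. Another 5996 protein-coding rows carried no symbol, so that the counts and ranks hold for the rows found by name. Among the other J proteins, DNAJA1, a main partner of cytosolic HSP70, was at 72.1 and 84.4 FPKM in ND, against 90.8 and 55.4 in HFD, 62.3 and 56.9 with HSD and 83.3 and 108 with HFSD. DNAJB2, which helps to pass ubiquitinated clients to the proteasome, was at 68.2 and 60.8, 78.8 and 62.9, 63.1 and 55.4, and 62.5 and 62.9 FPKM in the same order of diets. BAG6, which guards tail-anchored membrane proteins in the cytosol, varied the least of the 4 BAG genes, from 63.0 to 76.1 FPKM. DNAJC7 and DNAJA2 varied less still, by 1.09 and 1.08 times from the lowest to the highest retina.

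The spread between the 2 retinas of a diet was close to that of other genes. The median difference between them on the log2 scale of FPKM + 1 over the 51 genes was 0.19 for ND, 0.16 for HFD, 0.11 for HSD and 0.13 for HFSD, against 0.19, 0.23, 0.14 and 0.13 over all genes tested. The widest were HSPA2 in ND (1.05), HSPB3 in HFD (1.18) and in HFSD (0.69), and HSPB7 in HSD (1.64). These 3 genes return below, since each passed a fold limit in HSD.

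BAG2 stood out from the others. BAG2 is a co-chaperone that binds HSP70 as an exchange factor and restrains the ubiquitin ligase CHIP, so that clients are spared from ubiquitination. The ND retinas had 37.0 and 36.7 FPKM, against 71.3 and 70.1 in HFD, 75.7 and 72.2 with HSD and 55.8 and 53.7 with HFSD, from 415 to 910 fragments a library. The retinas of 1 diet lay close together, all 6 diet retinas lay above both ND retinas, and those of HFSD lay below those of HFD and HSD. Pigment epithelium markers, 10 listed and none at 0 in every library, summed to 608 and 756 FPKM in ND, 448 to 453 in HFD, 253 to 297 in HSD and 200 to 259 in HFSD. RPE65, their defining gene, was at 119 and 74.6 FPKM in ND and at 10.1 to 34.8 in the other diets, while RGR (136 and 213 in ND, 85.3 to 218 in the others), RLBP1 (150 and 305, 92.6 to 229) and BEST1 (0.438 and 0.517, 0.286 to 1.16) overlapped. These sums were lowest in HFSD, where BAG2 was intermediate, and were lower in all 4 sucrose retinas than in the other 4. In HFD, HSD and HFSD the largest parts of the sums were RGR and RLBP1, the latter also listed for Müller cells. RPE65 did not split the retinas by sucrose and was lowest in HFD replicate 2 (10.1 FPKM). The part of these markers in the differences of BAG2 and in the sucrose comparison was not tested. BAG2 rose in HSD by 0.99 on the log2 scale of FPKM + 1 (SE 0.095, limma, adjusted p = 0.0349 over the 12204 genes), and its mean with 1 added was 1.98 times that of ND. In HFD it was 0.92 higher with the same SE, 1.90 times the mean of ND, which missed the threshold (adjusted p = 0.111), and in HFSD 0.56 higher, 1.47 times, which missed it too (adjusted p = 0.177).

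By the means, BAG2 in HFSD lay below what the HFD and HSD differences would add up to, though the test of this missed the threshold. The interaction of fat and sucrose for BAG2 was -1.35 (95% interval -1.67 to -1.03, log2), with an unadjusted p of 1.44e-05 and an adjusted p of 0.0879. Averaged over fat, the sucrose diets were 0.31 higher in BAG2 (adjusted p = 0.102), and averaged over sucrose, the fat diets were 0.25 higher (adjusted p = 1). The 3 comparisons with ND share the 2 ND retinas, so that a low value there would enter each of them. The size of the HSD difference hardly moved between the 18 settings tried (0.95 to 1.04), but its adjusted p ranged from 0.0303 to 0.321 and was under 0.05 in 5 of them. It was lost whenever any 1 library was left out, at 0.0664 to 0.321, with the highest value without HSD replicate 2, the retina with muscle transcripts, where the difference was 1.02.

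**Figure D2:**
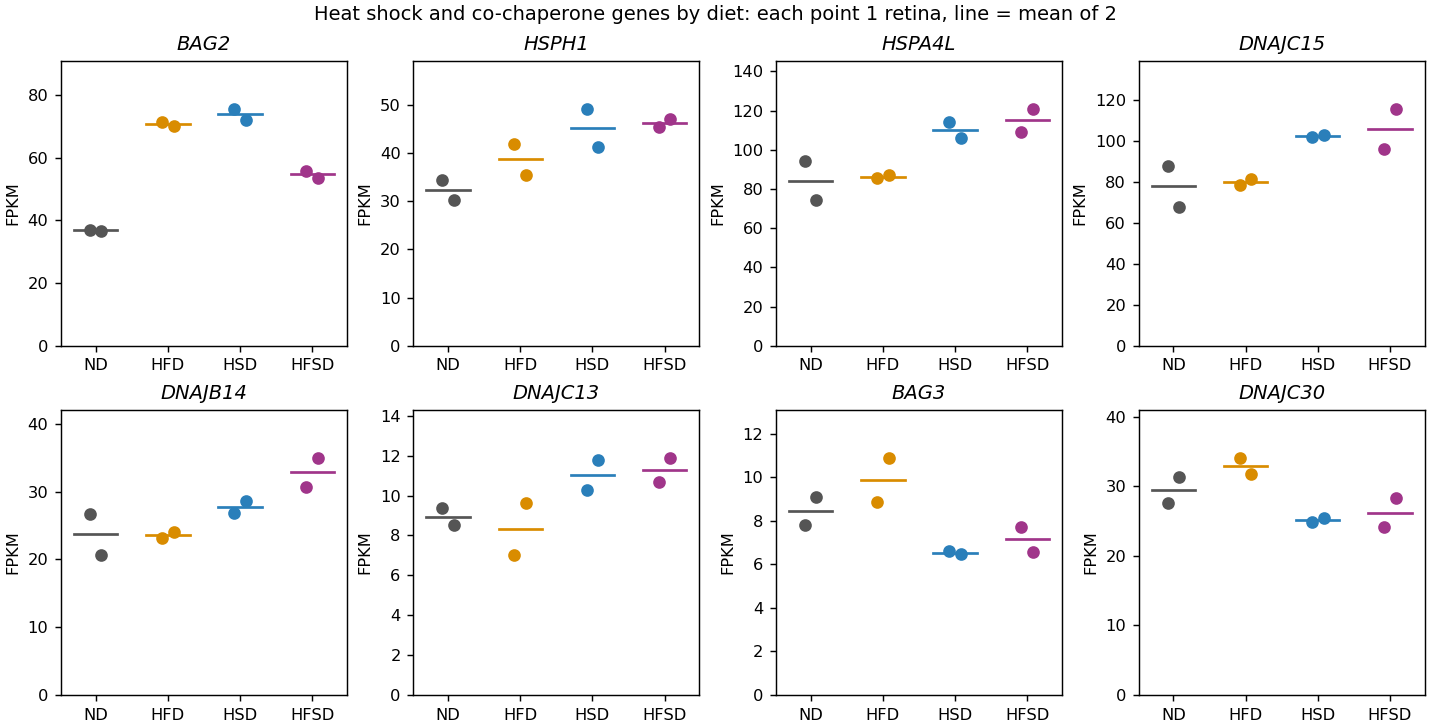
FPKM of 8 heat shock and co-chaperone genes by diet on linear axes from 0; each point is 1 retina and each line the mean of 2. BAG2 is lowest in ND (37.0 and 36.7) and intermediate in HFSD (55.8 and 53.7), HSPA4L, DNAJC15, DNAJB14 and DNAJC13 are higher and BAG3 is lower in all 4 sucrose retinas than in the other 4, and HSPH1 and DNAJC30 overlap.

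HFD against ND asked what added fat does alone. None of the 51 genes was called at an adjusted p under 0.05, against 0.00819% of all genes tested, which is 1 gene. At an unadjusted p under 0.05 there was 1, BAG2, where the share of all genes was 4.31%. It was 4 without ND replicate 2 (854 of the 12204 genes), and 2 without HFD replicate 1 (712) or HFD replicate 2 (1202). Without ND replicate 2 and HFD replicate 1 together it was 6 (1138). Both retinas of HFD lay outside those of ND for 13 genes, 8 above and 5 below, which is 25.5% against 25.9% of all genes. BAG2 alone of the 57 rows passed one of the fold limits that the study set on the ratio of mean FPKM + 1, against 1.76% of all protein-coding rows. The median difference was 0.03 (log2) over the 51 genes and 0.01 over all genes, with 33 higher and 18 lower.

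None of the other genes set apart in HFD had an unadjusted p under 0.05. HSPH1 was at 34.4 and 30.2 FPKM in ND and at 41.8 and 35.5 in HFD, 0.25 higher (log2; adjusted p = 0.998). DNAJC28 was 0.47 higher with an SE of 0.25, and DNAJC1, DNAJC19, DNAJC30, DNAJB9 and HSPB11 also lay higher in both HFD retinas. HSPB7 and HSPA12B were both 0.38 lower, with SEs of 0.49 and 0.23, and DNAJC3, DNAJC18 and DNAJA4 also lay lower. All 6 mitochondrial members were higher in HFD by their means, with a median of 0.09 and none at an unadjusted p under 0.05. HFD replicate 1, which stood apart by length, had the highest level of 4 of them, HSPA9 (133 FPKM), DNAJC19 (56.8), DNAJC11 (22.4) and DNAJC30 (34.1).

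HSD against ND asked what added sucrose does alone. BAG2 was the only gene of the 51 called, where 7 genes were called in all, 0.0574% of those tested. At an unadjusted p under 0.05 there were 6, each higher in HSD, or 11.8% of the members against 7.20% of all genes: BAG2, HSPH1, HSPA4L, DNAJC15, DNAJC28 and HSPB3. The count was 2 of 51 members, against 605 of the 12204 genes, without HSD replicate 2, the retina with muscle transcripts, and 3 against 659 without HSD replicate 1. The retinas did not overlap for 19 genes, 11 higher and 8 lower, 37.3% against 39.0% of all genes. A fold limit was passed by 4 of the 57 rows against 3.95% of all protein-coding rows, BAG2, HSPB3 and HSPB7 above and HSPA2 below. The median was -0.02 over the 51 genes and 0.00 over all genes.

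The exchange factors of the HSP110 class held 2 of these genes. HSPH1 (HSP110), the exchange factor that works with HSP70 in pulling proteins out of aggregates, was at 34.4 and 30.2 FPKM in ND, against 41.8 and 35.5 in HFD, 49.2 and 41.3 with HSD and 45.4 and 47.0 with HFSD. HSPA4L, its close relative, was at 94.3 and 74.2, 85.6 and 87.1, 114 and 106, and 109 and 121. All 6 diet retinas were above both ND retinas for HSPH1, while HSPA4L overlapped between ND and HFD. Against ND, HSPH1 was 0.47 higher in HSD (adjusted p = 0.466) and 0.51 in HFSD (adjusted p = 0.430), and HSPA4L 0.39 (adjusted p = 0.591) and 0.45 (adjusted p = 0.517). Without ND replicate 2, HSPA4L was 0.22 and 0.28 higher. HSPA4, the third of the class, was at 79.4 and 92.0 FPKM in ND and 99.5 and 85.0 in HSD, which overlapped, and its differences from ND were 0.01 to 0.11.

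Of the 6 mitochondrial members, 4 were lower than ND by their means in HSD and 4 in HFSD (medians -0.03 and -0.07), and none was called. DNAJC15, a J protein of the inner membrane that acts with the protein import motor, was at 87.8 and 68.0 FPKM in ND, against 78.6 and 81.4 in HFD, 102 and 103 with HSD and 96.0 and 116 with HFSD. It was 0.41 higher in HSD (adjusted p = 0.630) and 0.44 in HFSD (adjusted p = 0.556), but 0.22 and 0.26 without ND replicate 2. DNAJC28 was at 9.79 and 18.0, 18.6 and 19.1, 19.9 and 23.5, and 17.1 and 21.5 FPKM, so that ND replicate 1 lay below all others. Its difference in HSD of 0.66 (adjusted p = 0.646) was 0.26 without that retina.

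HFSD against ND asked what both additions do together. No member was called, against 0.0164% of all genes tested, or 2 genes. At an unadjusted p under 0.05 there were 5, each higher, 9.80% against 8.07% of all genes: BAG2, HSPH1, HSPA4L, DNAJC15 and DNAJB14. Without HFSD replicate 2 the count was 2, against 511 of the 12204 genes. The retinas did not overlap for 16 genes, 13 higher and 3 lower, which is 31.4% against 42.3% of all genes. None of the 57 rows passed a fold limit, against 3.43% of all protein-coding rows. DNAJB14, a J protein of the ER membrane that helps to clear misfolded membrane proteins, was at 26.7 and 20.7 FPKM in ND, against 23.2 and 24.0 in HFD, 26.9 and 28.6 with HSD and 30.7 and 35.0 with HFSD, and was 0.47 higher in HFSD (adjusted p = 0.512) and 0.29 without ND replicate 2.

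**Figure D3:**
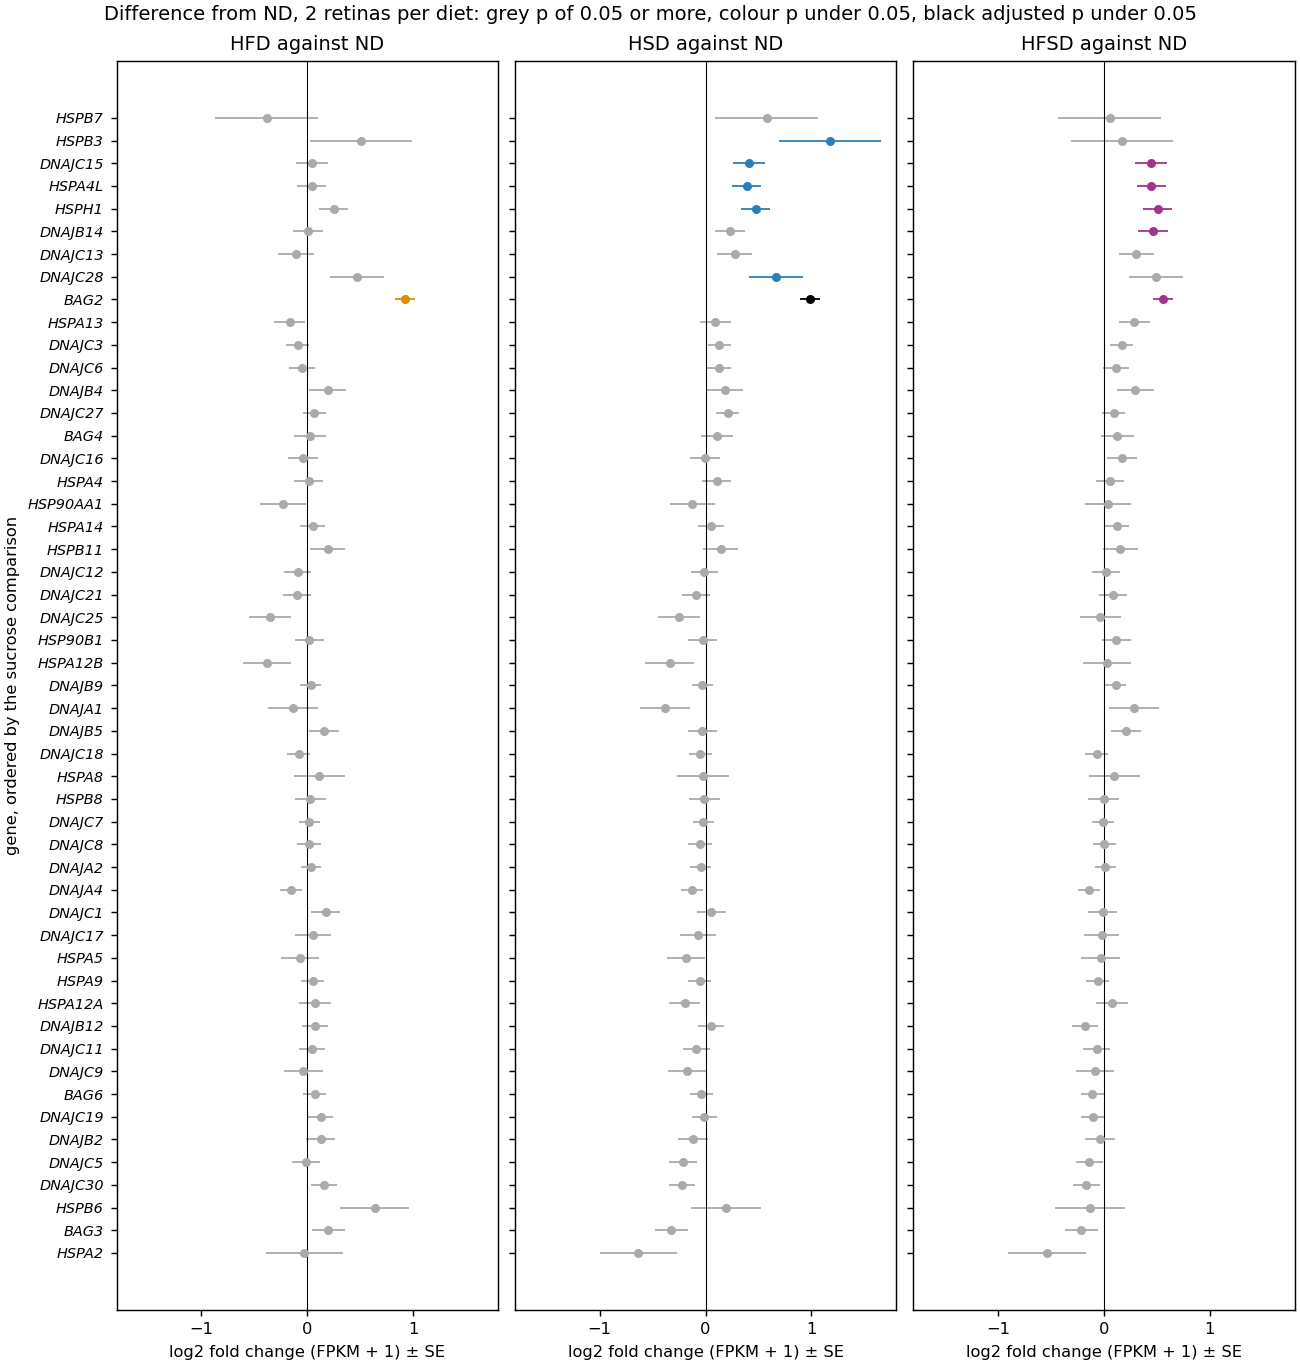
Log2 fold change of FPKM + 1 with its standard error for the 51 genes in HFD, HSD and HFSD against ND, 2 retinas per diet; grey marks p of 0.05 or more, colour p under 0.05 and black adjusted p under 0.05. Only BAG2 in HSD (0.99) is black, and most genes lie near 0 with medians of 0.03, -0.02 and 0.05.

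The 4 retinas of both sucrose diets were then set against the other 4. No member was called, against 0.344% of all genes tested, or 42 genes, 7 of them higher. At an unadjusted p under 0.05 there were 10 members, 8 higher and 2 lower, which is 19.6% against 18.3% of all genes. The lowest retina of one side lay above the highest of the other for 6 members, or 11.8%, against 12.9% of all genes. Both shares were near those of all genes, with adjusted p-values from 0.102 to 0.241 among the 10.

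The 8 higher members were BAG2, both HSP110 proteins named above, 3 of the ER, DNAJC15 and DNAJC13. HSPA4L was 0.40 higher (log2; 95% interval 0.17 to 0.62, adjusted p = 0.132), with all 4 sucrose retinas at 106 FPKM or more and the others at 94.3 or less. HSPH1 was 0.36 higher (adjusted p = 0.149), DNAJC15 0.40 (adjusted p = 0.150) and DNAJB14 0.35 (adjusted p = 0.165). DNAJC15 and DNAJB14 did not overlap, while HSPH1 did, since HFD replicate 1 at 41.8 FPKM was above HSD replicate 2 at 41.3.

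The ER held 2 further members among them. DNAJC3 (P58IPK), a J protein of the ER lumen that works with BiP and restrains the kinase PERK, was at 16.4 and 17.2 FPKM in ND, against 16.1 and 15.3 in HFD, 17.8 and 19.2 with HSD and 19.3 and 18.7 with HFSD, and was 0.19 higher (adjusted p = 0.241). HSPA13, an HSP70 of microsomes, was at 13.2 and 10.4, 11.2 and 9.53, 12.2 and 12.9, and 14.5 and 14.5, and was 0.27 higher (adjusted p = 0.232). HSPA5 was at 175 and 162 FPKM in HSD and 213 and 164 in HFSD against 196, 187, 212 and 157 in the diets without sucrose, and HSP90B1 was 0.03 higher in the sucrose diets (adjusted p = 0.880). DNAJC13 (RME-8), which shapes endosomes with HSP70, was at 9.36 and 8.52, 7.03 and 9.60, 10.3 and 11.8, and 10.7 and 11.9 FPKM, and was 0.34 higher (adjusted p = 0.203). DNAJC13 is long, at 10408 bases, and was lowest in HFD replicate 1, the library that stood apart by length. The part of length in its difference was not tested.

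The 2 lower members were BAG3 and DNAJC30. BAG3, which directs HSP70 clients bound by small heat shock proteins to autophagy, was at 7.81 and 9.09 FPKM in ND, against 8.84 and 10.9 in HFD, 6.60 and 6.47 with HSD and 7.73 and 6.57 with HFSD. It was 0.37 lower in the sucrose diets (log2; adjusted p = 0.169), with no overlap between the sides. DNAJC30, a mitochondrial J protein, was at 27.6 and 31.3, 34.1 and 31.7, 24.8 and 25.4, and 24.1 and 28.3 FPKM, and was 0.27 lower (adjusted p = 0.187). DNAJC30 is short, at 609 bases, and was highest in HFD replicate 1, and the part of length was not tested here either. Without ND replicate 2 and HFD replicate 1, the libraries with the highest summed FPKM, the 10 differences kept their sign, and 12 of the 51 members and 1873 of the 12204 genes were at an unadjusted p under 0.05, with no member called. That setting was chosen after the data were seen. DNAJC3, HSPA13, DNAJC13, BAG3 and DNAJC30 did not stay at an unadjusted p under 0.05 throughout the 17 settings tried for this comparison. The difference of DNAJC13 ranged from 0.21 to 0.44 over them, and that of DNAJC30 from -0.33 to -0.19.

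Fat diets against diets without fat gave the smallest median size of difference over the 51 genes, 0.05 (log2). The median with its sign was 0.04, with 37 higher and 14 lower, and over all genes tested 0.01, with 6416 higher and 5788 lower. No member was called, against 0.00819% of all genes, or 1 gene, and 1 member, BAG2, was at an unadjusted p under 0.05 against 3.20%. There were 3 without HFD replicate 2 (856 of the 12204 genes) and 2 without ND replicate 2 (462) or HSD replicate 1 (381). DNAJB9, an ER J protein that hands clients to degradation, was the only member without overlap (1.96%, against 1.34% of all genes), at 28.5 and 28.4 FPKM in HFD and 30.0 and 30.2 in HFSD against 28.3, 27.3, 27.8 and 26.7 in the diets without fat. Its difference was 0.09 (log2; adjusted p = 1). For the interaction no member was called, against 0.00819% of all genes, or 1 gene, and 2 members were at an unadjusted p under 0.05 against 3.74%. That count was 8 without ND replicate 2 (886 of the 12204 genes), 4 without HSD replicate 1 (460), and 1 without ND replicate 1 (480) or HSD replicate 2 (318). It was also 8 without ND replicate 2 and HFD replicate 1 together (1294). With all libraries the 2 were BAG2 and DNAJA1, whose interaction was 0.80 (adjusted p = 0.999; 0.45 without HFD replicate 2 and 1.15 without HFD replicate 1), as DNAJA1 was lower in HSD and higher in HFSD than in ND by their means. The 2 HFD retinas of DNAJA1, at 90.8 and 55.4 FPKM, lay further apart than the mean of HSD or HFSD lay from that of ND.

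HSPB3 and HSPB7, both past the upper fold limit in HSD, rested on few fragments. HSPB3, known from muscle and motor neurons, had 1 and 7 fragments in ND, against 19 and 3 in HFD, 11 and 25 with HSD and 11 and 2 with HFSD, or 0.112 and 0.867, 2.09 and 0.361, 1.53 and 3.18, and 1.06 and 0.278 FPKM. HSPB7, known from heart and skeletal muscle, had 13 and 6, 6 and 3, 5 and 40, and 10 and 10 fragments, or 1.06 and 0.541, 0.480 and 0.263, 0.507 and 3.70, and 0.701 and 1.01 FPKM. Both were highest in HSD replicate 2. HSPB3 was 1.17 higher in HSD (adjusted p = 0.690) and 0.81 without that retina, and HSPB7 was 0.58 higher (adjusted p = 0.827) and -0.24 without it.

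That retina was the one with skeletal muscle transcripts. All 13 marker rows of skeletal muscle found were highest there, TNNT3 and TNNC2 at 18.1 and 77.8 FPKM and at 0 in the other 7 libraries, and CKM at 57.1 against 0.178 or less. Genes of muscle energy use and calcium storage in a further list also passed the upper limit in HSD, PGAM2 at 7.06 times, ENO3 at 4.41, CASQ1 at 3.24 and CKMT2 at 1.59 times the mean of ND with 1 added, none called. In the same list CKMT2 passed the lower limit in HFD and HFSD at 0.385 and 0.370 times and COX7A1 the upper limit in HFD at 1.55 times. The part of muscle RNA in HSPB3 and HSPB7 was not tested beyond leaving out that retina. HSPB6, the most abundant HSPB gene, was at 16.3 and 30.3 FPKM in ND, against 30.2 and 40.9 in HFD, 19.5 and 33.3 with HSD and 19.4 and 21.1 with HFSD, with no difference past an unadjusted p of 0.05, and HSPB8 and HSPB11, the latter a subunit of ciliary transport despite its name, stayed at 8.53 to 11.7.

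**Figure D4:**
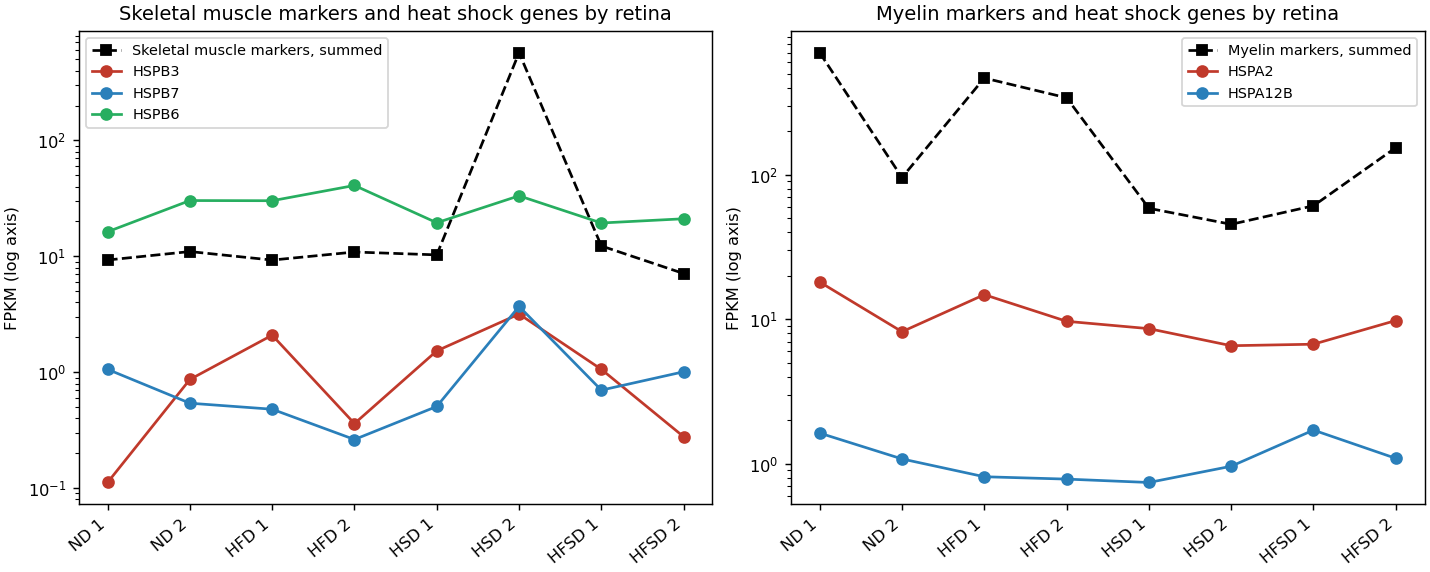
FPKM on log axes in each retina for small heat shock genes beside the sum of skeletal muscle markers (left), and for HSPA2 and HSPA12B beside the sum of myelin markers (right). The muscle sum is 571 in HSD replicate 2, where HSPB3 (3.18) and HSPB7 (3.70) are highest, and HSPA2 is highest in ND replicate 1 (18.1), where the myelin sum is 699.

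HSPA2 was the only member below the lower limit. It is an HSP70 best known from male germ cells and also present in brain. Its FPKM was 18.1 and 8.20 in ND, against 14.8 and 9.68 in HFD, 8.61 and 6.56 with HSD and 6.72 and 9.80 with HFSD, and the sum of 6 myelin markers was 699 and 95.7, 467 and 341, 58.6 and 45.4, and 61.0 and 154. The retinas with the highest and the lowest sum were also those with the highest and the lowest HSPA2, and the second highest was the same retina too, HFD replicate 1. Astrocyte markers summed to 1128 and 966 in these 2 high retinas and to 240 in the lowest. HSPA2 was 0.64 lower in HSD (log2; adjusted p = 0.762), 1.16 lower without ND replicate 2 and 0.11 lower without ND replicate 1, so that 1 ND retina set the size. The part of myelin in it was not tested. HSPA12B, an HSP70 relative of endothelium, was at 1.63 and 1.08, 0.813 and 0.783, 0.742 and 0.961, and 1.71 and 1.09 FPKM, from 36 to 120 fragments. Endothelial markers summed to 103 to 149 FPKM but did not move together. KDR, which made up most of the sum, was lowest in ND replicate 1 (75.8 against 91.5 to 131 FPKM in the others), and CLDN5 was highest there (28.0 against 0.534 to 20.3).

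None of the genes listed around the chaperones was called. Of 105 genes listed as co-chaperones, heat shock factors, chaperonins, ER and mitochondrial stress genes and muscle enzymes, 76 were tested in the 6 comparisons. At an unadjusted p under 0.05, 3 were higher and 0 lower in HFD, 3 and 0 in HSD, 2 and 1 in HFSD, 7 and 5 in the sucrose comparison, 0 and 0 in the fat comparison, and 0 and 3 for the interaction. Over both directions this was 3.95% of the listed genes for HFD, for HSD and for HFSD alike and 15.8% in the sucrose comparison, against 4.31%, 7.20%, 8.07% and 18.3% of all genes. It was 0% in the fat comparison and 3.95% for the interaction, against 3.20% and 3.74% of all genes. HSF1, the main transcription factor of the heat shock response, was at 24.7 and 27.6 FPKM in ND, against 29.2 and 27.6 in HFD, 27.2 and 26.3 with HSD and 26.2 and 25.5 with HFSD. HSF2 ranged from 8.67 to 11.8, HSF4 from 0.786 to 2.63, and HSBP1, which binds HSF1, from 520 to 824. HSF2BP, a partner of HSF2, alone of the heat shock factor list passed a fold limit, at 1.19 and 1.52 FPKM in ND and 3.30 and 2.54 in HFD (0.74 higher, log2; adjusted p = 0.907).

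Among HSP90 co-chaperones, 4 of 16 tested were higher and none lower at an unadjusted p under 0.05 in the sucrose comparison, where the share of all genes was 18.3%: FKBP5, CHORDC1, FNIP1 and TSC1. The median of the list there was -0.04 (log2). FKBP5, a glucocorticoid-induced partner of HSP90 in steroid receptors, was at 21.7 and 30.0 FPKM in ND, against 24.6 and 24.1 in HFD, 34.7 and 36.6 with HSD and 37.9 and 37.5 with HFSD, without overlap between the sides, and was 0.54 higher (log2; adjusted p = 0.0940). CRYAB, alpha-B crystallin and a small heat shock protein by sequence, was at 208 and 187 FPKM in ND, against 291 and 317 in HFD, 178 and 175 with HSD and 123 and 171 with HFSD. It was 0.61 lower in the sucrose diets (adjusted p = 0.0902) and 0.62 higher in HFD (adjusted p = 0.998). CRYAB is known from Müller cells in the retina. Of the 4 Müller cell markers, GLUL and RLBP1 were lower in all 4 sucrose retinas (GLUL 722 to 890 against 1489 to 2127 FPKM, RLBP1 92.6 to 131 against 150 to 305), while SLC1A3 (185 to 191 against 180 to 203) and VIM (697 to 840 against 711 to 1090) overlapped. Their part was not tested.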

How the data were processed

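Total RNA of 8 retinas was sequenced by the authors from Illumina TruSeq libraries. Per the study's methods and the submitters' notes, reads were checked with FastQC, trimmed at the 5′ end and mapped with TopHat2, reads with several places were discarded, and a custom R script of the authors gave the FPKM of each gene, which is the deposited value, though the table is named for raw counts. Genome build, annotation and strand setting were not given in the sources used here.

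Groups came from the titles and treatment labels of the samples. The test was limma 3.58.1 in R 4.3.3 with all 8 libraries in 1 model of log2(FPKM + 1) and a trend of the variance with the mean, two-sided, with Benjamini-Hochberg adjustment over 12204 protein-coding genes with an FPKM of 1 or more in at least 2 libraries, called at an adjusted p under 0.05. With 1 added, differences of low genes come out too small. The fold limits were those of the study, 1.54 and 0.65 on means of FPKM + 1, over all 19293 protein-coding rows. FPKM steps gave whole fragments for 100% of values above 0 (tolerance 0.01 fragments), which give the depth used as divisor and served the voom alternative. Scripts were tested on simulated data.

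The genes, lists and tests were chosen with earlier results of these data known. Genes were named by rule: BAG2, the most abundant of each name family, members called, past a fold limit or at an unadjusted p under 0.05, stress-inducible members, heat shock factors and listed genes past a limit. Others, such as FKBP5, CRYAB, HSPA12B, DNAJB9 and the genes named without overlap, were singled out after their values were seen. Alternatives were another pseudocount, filters, scalings, no trend, only the groups compared, a replicate block, voom and each library left out. No sequence or coordinate was used. With 2 retinas per diet, precision rests on the spread shared by the 4 diets.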

Additional observations from a re-analysis of the deposited data

Results flagged for a closer look

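In BAG2 every HSD retina was above every ND retina, and every HFSD retina was below every HFD retina, so that sucrose went with a higher level without fat and a lower level with fat. The interaction was -1.35 (log2; limma, unadjusted p = 1.44e-05, adjusted p = 0.0879). In HSPA12B the directions were reversed, lower in HSD than in ND and higher in HFSD than in HFD in every retina, with an interaction of 0.74 (unadjusted p = 0.0521, adjusted p = 0.999) on 36 to 120 fragments. HSPA12B reached 1 FPKM only in ND and HFSD, so that it was tested only through the groups where it was high. Its directions and its interaction rest on those same values. Over all genes tested 767, or 6.28%, had such opposite directions in every retina, against 2 of the 51 members, or 3.92%.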

How the results depend on the processing

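The BAG2 call in HSD was the only call among the members, and 0 members were called there without the trend, with only the 2 groups compared, with a replicate block, with voom on recovered fragments, with each library left out (0 to 0) and, chosen after the data were seen, without both libraries of highest summed FPKM. The BAG2 difference was 0.99 with the replicate block (adjusted p = 0.0745). Retinas of different diets shared only a number: the correlations of their deviations from the diet means lay between -0.165 and 0.081 over the 6 pairs of diets, with 2 retinas per diet.

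The medians over the members were near 0 and some moved by more than the SD between retinas of 0.038. Scaling to equal sums (TPM) gave -0.022 in HFD, 0.035 in HSD, 0.098 in the sucrose comparison and 0.063 for the interaction. The medians over all genes were then -0.046, 0.049, 0.067 and 0.057, so that this scaling moved all genes alike. Leaving out 1 library gave -0.015 to 0.094 in HFD, -0.026 to 0.038 in the sucrose comparison and -0.018 to 0.064 for the interaction, and without both libraries of highest summed FPKM the fat comparison gave -0.002 and the interaction 0.105. Counts past the fold limits with a pseudocount of 0.1 were 5 for HFD, 7 for HSD and 2 for HFSD, or 8.77%, 12.3% and 3.51% of the rows against 7.95%, 12.0% and 11.1% of all protein-coding rows, and with 1 library left out 1 to 4, 2 to 5 and 0 to 2. They were 4 in HFD without ND replicate 2 (7.02%, against 4.03% of all rows) and 2 without either HFD retina (3.51%, against 3.26% and 3.33%), 2 in HSD without HSD replicate 2 (3.51%, against 4.57%), and in HFSD 2 without ND replicate 1 or ND replicate 2 (3.51%, against 6.22% and 4.52%) and 1 without HFSD replicate 2 (1.75%, against 4.31%). HSPB7 in HSD ranged from -0.24 without HSD replicate 2 to 1.40 without HSD replicate 1. The cause was not tested. Depth limits HSPB3 and HSPB7 most, at 1 to 40 fragments a library.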
